A study of Neurospora crassa with 12 samples.

Results

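This account concerns the genes of Neurospora crassa, a filamentous ascomycete, with a higher transcript level in Δclr-5, compared with the WT strain, on each of the 3 media of the study. They were chosen by their level in counts scaled to the library total (CPM). On each medium a gene needed a mean of at least 5 CPM in Δclr-5, a mean of at least 1.8 times that of the WT strain, and both Δclr-5 libraries above both WT libraries. It was met by 130 of 9730 genes, or 1.34% of them. On single media, the same conditions were met by 991 genes on Avicel (10.2%), by 472 on histidine (4.85%) and by 903 on leucine (9.28%). Levels of the strains chose these genes, so their folds between strains are a description, and no test of them is given. The study asked how clr-5, a gene of a zinc binuclear cluster transcription factor, acts on the use of cellulose and amino acids. The WT strain and a strain with clr-5 deleted were pre-grown on glucose in constant light and moved for 8 h, per the labels, to 2% Avicel, a microcrystalline cellulose. The methods of the study give a shorter time than the labels. The 3 media were Avicel in Vogel's salts, and Avicel with 50 mM histidine or 50 mM leucine as the only nitrogen source, here called histidine and leucine. The amino acid media thus lacked the usual nitrogen source of the Avicel medium, and the effects of its absence and of the amino acid cannot be told apart. Each of the 6 groups had 2 independent cultures, and the mutant was 1 deletion strain.

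Several of the 130 genes belong to the asexual and sexual programmes of this fungus. Under starvation or in air, hyphae of N. crassa form conidiophores, which bud off orange asexual spores, the conidia. The regulator gene fl and a set of conidiation (con) genes are expressed along this path, and the hydrophobin of the eas gene coats the conidia with a layer that repels water. Mating type is set by the form of the mat locus, A or a. Strains of each form express their own pheromone gene, ccg-4 in mat A and mfa-1 in mat a, and the receptor for the pheromone of the other form.

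The 12 libraries held 16797962 to 20381308 counts. The targeted gene clr-5 (NCU05383) read 1.54 to 3.09 CPM in Δclr-5 and 17.9 to 56.1 CPM in the WT strain, so the labels and the target matched in all libraries. For the mat A gene matA-1, 0 counts were found in each of the 6 Δclr-5 libraries, which allows up to 0.147 to 0.171 CPM per library, and its level was 7.30 to 112 CPM in the WT libraries. The labels give no mating type, and the deletion of clr-5 and this difference at matA-1 cannot be told apart in any comparison of the strains. The samples are labelled mycelium, and none of 9 conidial marker genes had a group mean of 0, the lowest being eas in WT on leucine with 0.603 CPM. These genes of conidia and conidiophores (eas, con-6, con-8, con-10, con-13, fl, acon-3, csp-1 and csp-2) summed to 259 and 283 CPM in WT on Avicel and to 3427 and 36108 CPM in Δclr-5. On histidine the sums were 1001 and 1332 CPM in WT and 83812 and 70618 in Δclr-5, and on leucine 741 and 681 against 1388 and 1912. Most of each sum in Δclr-5 on Avicel and histidine was eas: without it the 8 other genes summed to 554 and 2093 CPM on Avicel and 821 and 738 on histidine. The genes eas, con-6, con-8 and fl are among the 130, so the rule fixed part of the strain gap in these sums. Outside the 130, con-10, con-13, acon-3, csp-1 and csp-2 had Δclr-5 means of 4.15 to 42.1 times those of WT on Avicel. For them the ratios were 1.17 to 4.84 on histidine and 1.03 to 1.63 on leucine. In such bulk samples, more cells of a type and more RNA per cell cannot be told apart. The Δclr-5 cultures on Avicel stood apart from each other, the chi-square of their counts, per gene, being 211, against 14.4 to 86.0 in the other groups. Culture 2 read above culture 1 for 116 of the 130 genes, with a median ratio of 2.02, while the median over 7451 genes of at least 5 CPM was 1.13. The share of all genes with culture 2 above culture 1 was not computed. The rule used the mean of both cultures, so it fixed part of this excess, and how much was not tested. On Avicel, the minimum fold of the rule was reached by 103 members with culture 1 alone and by 129 with culture 2 alone. The conidial sum also was higher in culture 2, and its part in the levels of the other genes was not tested.

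The strain fold, the mean CPM of Δclr-5 over that of WT, had a median of 4.25 over the 130 genes on Avicel, 3.33 on histidine and 2.92 on leucine. Over the 7451 genes of at least 5 CPM, the medians were 1.15, 0.973 and 1.20. With culture 1 of Δclr-5 alone the median of the 130 genes on Avicel was 2.70, and with culture 2 alone it was 5.74. The fold was at least 5 for 58 genes on Avicel, for 38 on histidine and for 28 on leucine, and 17 genes had it on all 3 media. Among the 130 genes, 70 had their largest fold on Avicel, 35 on histidine and 25 on leucine. The level itself ranked otherwise: the mean CPM in Δclr-5 was highest on histidine for 91 genes, and the mean CPM in WT was highest there for 103. For 103 genes, both strains had their highest level on the same medium. The shares of all genes for these counts were not computed. Scaled by library size alone, all genes tested also ran higher on histidine than on Avicel. Their median log2 difference was 0.63 in WT and 0.38 in Δclr-5. All members together took 4065 to 4292 CPM in WT on Avicel, 15635 to 18746 on histidine and 5419 to 5739 on leucine. In Δclr-5 they took 14352 and 56217 CPM on Avicel, 127949 to 145171 on histidine and 42379.5 to 44779.5 on leucine, and without eas and mfa-1 the sums on histidine were 56580.0 and 61071.

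**Figure D1:**
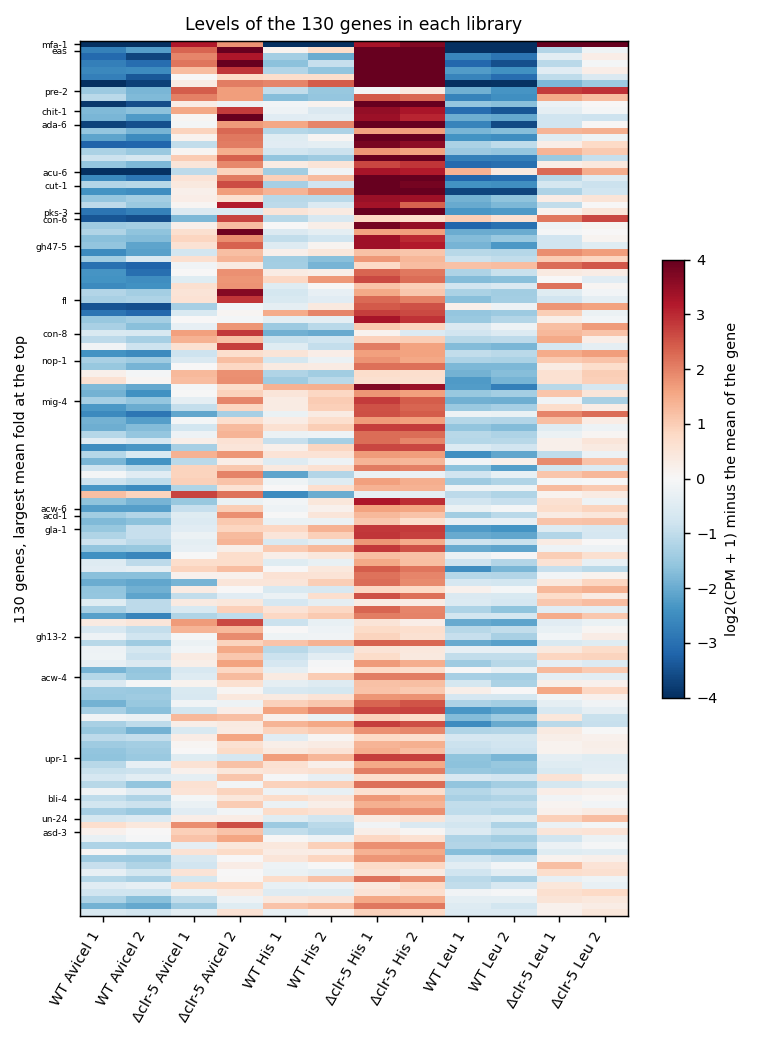
Levels of the 130 genes (rows) in the 12 libraries (columns, 2 cultures per strain and medium), as log2(CPM + 1) minus the gene's mean over the libraries, so red is above and blue below that mean, with colours capped at 4 either way. Rows run from the largest to the smallest geometric mean of the 3 strain folds, genes with a symbol are named, and the Δclr-5 columns on histidine are the reddest, where 91 genes had their highest Δclr-5 level. On the scale of library size alone, the median of all genes tested was also higher on histidine than on Avicel.

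The edge of the group was not a gap. Just inside, the smallest of the 3 folds was 1.803 for NCU04940, 1.81 for NCU02174, 1.81 for NCU10603, 1.83 for NCU02190 and 1.83 for NCU00477. Just outside it was 1.79 for NCU00244, 1.79 for NCU02164, 1.78 for NCU07133, 1.78 for NCU01989 and 1.77 for NCU09758. In all, 36 members had a smallest fold under 2. Scaling by TMM in place of the library total left 92 genes, all among the 130, and took out 38, among them fl, acu-6, acw-4, acw-6, un-24 and asd-3. Without culture 2 of Δclr-5 on Avicel 103 genes met the rule, of which 100 were among the 130, and gla-1, gh13-2, nop-1, acd-1 and acw-4 were lost. A further condition on the same values is that all 6 Δclr-5 libraries lay above all 6 WT libraries whatever the medium. This was so for 27 of the 130 genes and for 124 of all 9730 genes (1.27%). The rule already asked for this order within each medium, so it fixed part of the count of 27. The 27 genes included mfa-1, pre-2, con-8, un-24 and gh13-2, and of the others NCU05858, NCU05859, NCU05381 and NCU08037 had the largest folds.

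Conidiation genes held some of the largest folds. The hydrophobin gene eas (NCU08457, chromosome II, 3570905 to 3572798) had the highest Δclr-5 level per kilobase of gene, 16765 CPM per kb, before mfa-1 with 8884. The level of eas was 87.6 and 123 CPM in the WT cultures on Avicel, 637 and 959.6 on histidine and 0.491 and 0.714 on leucine. In Δclr-5, eas was at 2873 and 34015 CPM on Avicel, 82991 and 69879.5 on histidine and 251 and 506 on leucine. The cultures of the strains were far apart on every medium, and the folds were 175, 95.8 and 628 on Avicel, histidine and leucine. On Avicel, the fold of eas was 27.3 with Δclr-5 culture 1 and 323 with culture 2. The regulator gene of conidiophore development, fl (NCU08726, chromosome II, 3805777 to 3809265), was lower in level. The level of fl was 18.8 and 19.4 CPM in the WT cultures on Avicel, 30.2 and 34.0 on histidine and 14.2 and 17.9 on leucine. In Δclr-5, fl was at 70.5 and 352 CPM on Avicel, 232 and 195 on histidine and 27.2 and 36.8 on leucine. Its folds were 11.1, 6.66 and 2.00, and on leucine the Δclr-5 cultures lay just above the WT ones.

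The conidiation gene con-6 (NCU08769, chromosome III, 5205042 to 5205927) overlaps NCU08768 in the annotation. The level of con-6 was 1.62 and 1.40 CPM in the WT cultures on Avicel, 11.97 and 17.2 on histidine and 54.3 and 41.6 on leucine. In Δclr-5, con-6 was at 7.05 and 181 CPM on Avicel, 48.7 and 44.1 on histidine and 119.8 and 177 on leucine. Its folds were 62.1, 3.18 and 3.10, and the WT level was lowest on Avicel. The large fold there rests on 1 library: it was 4.66 with Δclr-5 culture 1 and 119.5 with culture 2. Like eas and fl, con-6 was higher in culture 2 of Δclr-5 on Avicel than in culture 1. A further conidiation gene, con-8 (NCU09235, chromosome I, 9463799 to 9465488), differed from these in its order of media. The level of con-8 was 54.4 and 52.5 CPM in the WT cultures on Avicel, 21.2 and 19.6 on histidine and 48.0 and 55.7 on leucine. In Δclr-5, con-8 was at 259.7 and 588 CPM on Avicel, 92.0 and 56.9 on histidine and 206 and 182 on leucine. Both strains had their lowest con-8 level on histidine, and the folds were 7.93, 3.65 and 3.73. All 6 Δclr-5 values of con-8 were above all 6 WT values, although the nearest were only 56.9 and 55.7 CPM.

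Of a list of 16 conidiation genes, 14 were matched, and 5 of these are among the 130, beside 1.34% of all genes. They are eas, con-6, con-8, fl and acu-6, which the reference also calls con-3. The single-medium conditions were met by 13 of the 14 on Avicel, by 8 on histidine and by 6 on leucine, beside 10.2%, 4.85% and 9.28% of all genes. The other genes that met them on Avicel missed them on at least 1 amino acid medium. The folds of con-10 were 14.8, 1.22 and 1.58 on Avicel, histidine and leucine, those of con-13 were 42.1, 1.68 and 1.03, and those of csp-1 were 4.15, 1.23 and 1.63. For acon-3, a gene of conidiophore development, they were 10.2, 4.84 and 1.59, and for rca-1 6.74, 2.55 and 1.72. On Avicel, acon-2 had a fold of 1.04, and it alone of the 14 did not meet the conditions there. Some folds went the other way. Those of acon-2 on histidine and leucine were 1.43 and 0.462, and those of ccg-13 were 25.2, 0.34 and 18.0 on Avicel, histidine and leucine.

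Mating genes showed the largest single fold. The pheromone precursor gene of mat a strains, mfa-1 (NCU16992, chromosome V, 3396270 to 3397430), was low in the WT strain. The level of mfa-1 was 6.20 and 4.03 CPM in the WT cultures on Avicel, 3.68 and 3.43 on histidine and 2.29 and 2.38 on leucine. In Δclr-5, mfa-1 was at 1052 and 392 CPM on Avicel, 1109 and 1489.5 on histidine and 28022 and 29819.7 on leucine. The Δclr-5 level was highest on leucine, where the WT level was lowest, and the folds were 141, 366 and 12381. The receptor gene pre-2 (NCU05758, chromosome VII, 3727404 to 3729156), whose product in mat a strains binds the mat A pheromone, was also higher. The level of pre-2 was 1.86 and 1.23 CPM in the WT cultures on Avicel, 2.98 and 1.74 on histidine and 1.09 and 0.536 on leucine. In Δclr-5, pre-2 was at 41.3 and 24.2 CPM on Avicel, 6.45 and 9.07 on histidine and 54.2 and 59.0 on leucine. Its folds were 21.2, 3.29 and 69.6, and all 6 Δclr-5 values lay above all 6 WT values. Their counterparts read lower in Δclr-5. The mat A pheromone gene ccg-4 read 208 and 193 CPM in WT on Avicel, 486 and 368 on histidine and 20642 and 17876 on leucine, and at most 0.228 CPM in any Δclr-5 library. The folds of pre-1, the receptor gene that works in mat A strains, were 0.617, 0.296 and 0.35. Of 16 mating and sexual development genes, mfa-1 and pre-2 met the rule on all media, beside 1.34% of all genes. On all media, matA-1, ccg-4 and asd-1 met a looser mirror image of it (WT mean of at least 5 CPM and 1.8 times that of Δclr-5). This mirror image set no condition on single libraries, and its share over all genes was not computed. A further member, asd-3 (NCU05597, chromosome VI, 1380321 to 1382611), is named for ascus development and had folds of 1.98, 2.44 and 2.42.

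**Figure D2:**
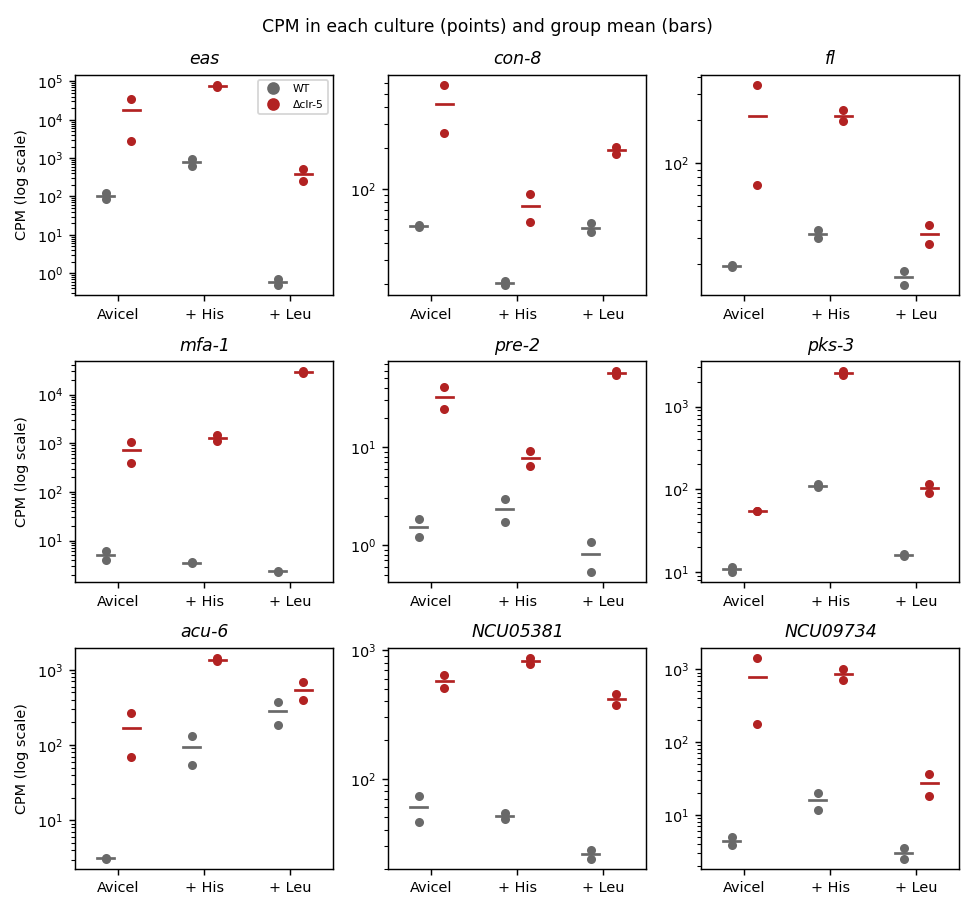
CPM of 9 of the 130 genes in each culture (points, log axis) with the mean of the 2 cultures (bars), for WT (grey) and Δclr-5 (red) on each medium. The Δclr-5 points lie above the WT points of the same medium in each panel, as the rule required, and the cultures of Δclr-5 on Avicel are far apart for eas, fl and NCU09734.

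Among 27 light and clock genes, bli-4 and nop-1 met the rule on all media, while 8 met it on Avicel, 6 on histidine and 7 on leucine, beside 1.34%, 10.2%, 4.85% and 9.28% of all genes. The looser mirror image of the rule, with no condition on single libraries, was met by 3 of the 27 on histidine. It was met by 0 on Avicel and on leucine, and its share over all genes was not computed. One of the 3 was ccg-14, with a fold on histidine of 0.175. Both strains were grown in constant light. The level of bli-4 was 14.03 and 11.98 CPM in the WT cultures on Avicel, 49.0 and 41.2 on histidine and 11.2 and 12.1 on leucine. In Δclr-5, bli-4 was at 27.5 and 40.7 CPM on Avicel, 100.3 and 86.5 on histidine and 26.6 and 30.1 on leucine. The folds of bli-4, a blue light inducible gene (NCU08699, chromosome II, 3723739 to 3725844), stayed close together at 2.62, 2.07 and 2.43. The gene of the opsin NOP-1 (NCU10055, chromosome VII, 1316548 to 1318623) had folds of 3.91, 4.40 and 5.20. The level of nop-1 was 26.6 and 24.3 CPM in the WT cultures on Avicel, 40.4 and 56.6 on histidine and 27.8 and 27.3 on leucine. In Δclr-5, nop-1 was at 44.7 and 154 CPM on Avicel, 232 and 195 on histidine and 137 and 149 on leucine. The Δclr-5 level of nop-1 was highest on histidine. The central genes of the list did not show such folds: those of frq were 1.20, 1.10 and 1.04, those of wc-1 1.41, 1.17 and 0.886 and those of vvd 1.58, 0.898 and 1.34. The carotenoid gene al-3 had folds of 5.21, 7.93 and 1.66 and missed the rule on leucine alone. A member outside this list, cut-1 (NCU04924, chromosome IV, 749584 to 752599), is known for carotenoid overaccumulation in its mutant and had folds of 8.89, 33.3 and 3.64. The level of cut-1 was 10.9 and 11.6 CPM in the WT cultures on Avicel, 9.69 and 14.6 on histidine and 4.14 and 3.93 on leucine. In Δclr-5, cut-1 was at 34.7 and 166 CPM on Avicel, 427 and 381 on histidine and 15.6 and 13.8 on leucine. On Avicel, culture 2 of Δclr-5 was again well above culture 1.

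Some of the 130 genes lie side by side. By the coordinates of the OR74A assembly NC12, 18 members formed 8 runs of neighbouring genes, of which 2 runs held 3 genes each. How many such runs other sets of genes form was not computed. Shares of members ranged from 0.886% of the genes of chromosome V to 1.65% of those of chromosome II. One run of 3 (chromosome IV, 517962 to 539552) held NCU04862, the polyketide synthase gene pks-3 and ada-6, a gene of a transcription factor whose deletion alters asexual and sexual development. The level of pks-3 was 9.97 and 11.6 CPM in the WT cultures on Avicel, 116 and 105 on histidine and 15.4 and 16.3 on leucine. In Δclr-5, pks-3 was at 53.9 and 54.8 CPM on Avicel, 2669 and 2388 on histidine and 90.6 and 114 on leucine. The cultures of each group agreed closely, also those of Δclr-5 on Avicel, and the folds of pks-3 were 5.04, 22.9 and 6.46. The level of ada-6 was 2.03 and 2.45 CPM in the WT cultures on Avicel, 114 and 154 on histidine and 5.40 and 2.20 on leucine. In Δclr-5, ada-6 was at 36.0 and 128 CPM on Avicel, 933 and 918 on histidine and 21.5 and 40.1 on leucine. The folds of ada-6 were 36.5, 6.92 and 8.11 and those of NCU04862 were 4.72, 11.9 and 9.46, so pks-3 and NCU04862 had their largest fold on histidine and ada-6 on Avicel.

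The other run of 3 (chromosome VII, 114609 to 125416) held NCU09274, NCU09273 and NCU09272, with folds of 12.8, 8.42 and 8.00, 22.9, 8.91 and 6.29 and 5.15, 4.50 and 3.23 on Avicel, histidine and leucine in each case. Larger folds on Avicel and histidine were seen for the neighbours NCU05858 and NCU05859 (chromosome VII, 4076847 to 4086497). The level of NCU05858 was 3.07 and 1.75 CPM in the WT cultures on Avicel, 12.6 and 7.90 on histidine and 4.74 and 3.63 on leucine. In Δclr-5, NCU05858 was at 135 and 329.6 CPM on Avicel, 1407 and 1333 on histidine and 24.9 and 40.8 on leucine. The folds of NCU05858 were 96.3, 134 and 7.84 and those of NCU05859 83.0, 71.4 and 9.82, and in both genes all 6 Δclr-5 values exceeded all 6 WT values. The pair NCU09734 and NCU09733 (chromosome IV, 1983143 to 1989874) was less alike. The level of NCU09734 was 4.93 and 3.86 CPM in the WT cultures on Avicel, 11.8 and 20.1 on histidine and 3.49 and 2.5003 on leucine. In Δclr-5, NCU09734 was at 176 and 1415 CPM on Avicel, 1016 and 713 on histidine and 18.1 and 36.9 on leucine. NCU09734 had folds of 181, 54.2 and 9.17 and NCU09733 of 2.37, 2.80 and 2.21. The fold of NCU09734 on Avicel was 40.0 with culture 1 and 322 with culture 2. The remaining pairs were NCU02890 with NCU16477, NCU04940 with NCU04941, NCU09693 with NCU09692, and NCU08155 with NCU08156, and their folds ranged from 1.803 to 8.38.

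A member also lies next to the deleted gene. NCU05381 (chromosome II, 1468485 to 1471060) has 5 bases between it and clr-5 (chromosome II, 1471066 to 1475393), and overlaps NCU05382. The level of NCU05381 was 73.8 and 46.2 CPM in the WT cultures on Avicel, 48.3 and 53.8 on histidine and 23.9 and 28.2 on leucine. In Δclr-5, NCU05381 was at 639.6 and 509.7 CPM on Avicel, 864 and 784 on histidine and 459 and 376 on leucine. All 6 Δclr-5 values were above all 6 WT values, and culture 2 of Δclr-5 on Avicel read below culture 1 here. The folds of NCU05381 were 9.58, 16.2 and 16.0. The deletion of clr-5 and its effect on the adjacent sequence cannot be told apart in this strain. NCU05377, at 10218 bases from clr-5, had folds of 1.94, 2.10 and 1.86, and NCU05395, at 44504 bases, of 2.56, 2.14 and 2.03. In all, 25 of the 130 genes overlap another gene of the reference, and the share over all genes was not computed. The strand setting of the counting was not given in the sources used here, so reads of such overlapping genes may not have been told apart.

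Genes of the cell wall and of secreted enzymes formed another set. The chitinase gene chit-1 (NCU02184, chromosome I, 937786 to 943577), which overlaps NCU14003, had folds of 17.2, 13.995 and 9.59. The level of chit-1 was 13.4 and 14.7 CPM in the WT cultures on Avicel, 41.5 and 31.8 on histidine and 4.96 and 3.51 on leucine. In Δclr-5, chit-1 was at 142 and 340.4 CPM on Avicel, 556 and 469 on histidine and 36.5 and 44.8 on leucine. The level of chit-1 in Δclr-5 was lowest on leucine, and there too it was above WT. The genes of the anchored cell wall proteins ACW-4 and ACW-6 had folds of 3.87, 2.49 and 1.93 and of 5.74, 3.05 and 1.95. Of 31 matched cell wall genes, acw-4 and acw-6 met the rule on all media, 14 met it on Avicel, 4 on histidine and 8 on leucine, beside 1.34%, 10.2%, 4.85% and 9.28% of all genes. The looser mirror image of the rule, with no condition on single libraries, was met by 5 of the 31 on histidine. It was met by 0 on Avicel and on leucine, and its share over all genes was not computed. Among the 5 were acw-8 and ncw-1, with folds on histidine of 0.404 and 0.316. The glucoamylase gene gla-1, for starch breakdown, differed between the Δclr-5 cultures on Avicel. The level of gla-1 was 71.8 and 109.9 CPM in the WT cultures on Avicel, 369.6 and 539.5 on histidine and 42.3 and 38.6 on leucine. In Δclr-5, gla-1 was at 151 and 380.1 CPM on Avicel, 1492 and 1432 on histidine and 145 and 131 on leucine. The folds of gla-1 were 2.92, 3.22 and 3.42, and that on Avicel was 1.66 with Δclr-5 culture 1 and 4.18 with culture 2. Among other genes of glycoside hydrolases, gh13-2 had folds of 3.81, 2.04 and 2.92 and gh47-5 of 12.1, 11.2 and 2.81. The carboxypeptidase Y gene NCU00477 was among the highest per kilobase in Δclr-5, with 1062 CPM per kb, and had folds of 2.12, 1.85 and 1.83.

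The gene of phosphoenolpyruvate carboxykinase, acu-6 (NCU09873, chromosome VI, 1824832 to 1828327), an enzyme of gluconeogenesis, varied with the medium. The level of acu-6 was 3.07 and 3.16 CPM in the WT cultures on Avicel, 54.2 and 132 on histidine and 379 and 187 on leucine. In Δclr-5, acu-6 was at 68.7 and 270.0 CPM on Avicel, 1424 and 1292 on histidine and 693 and 392 on leucine. The folds of acu-6 were 54.4, 14.6 and 1.92, and on leucine the nearest cultures of the strains read 392 and 379 CPM. Of 19 genes of carbon starvation and storage, acu-6 and gla-1 met the rule on all media, beside 1.34% of all genes. The glyoxylate cycle gene acu-3 had folds of 5.08, 1.62 and 0.46, and so met it on Avicel only. The looser mirror image of the rule, with no condition on single libraries, was met by 0 of the 19 on Avicel. It was met by 4 on histidine and by 2 on leucine, and its share over all genes was not computed. The ABC transporter gene NCU00290 (chromosome III, 3330916 to 3333349) also varied with the medium. The level of NCU00290 was 1.86 and 2.51 CPM in the WT cultures on Avicel, 37.2 and 44.5 on histidine and 12.9 and 11.97 on leucine. In Δclr-5, NCU00290 was at 49.4 and 34.9 CPM on Avicel, 1949 and 1471 on histidine and 33.7 and 40.1 on leucine. The folds of NCU00290 were 19.3, 41.8 and 2.97. NCU00848 (chromosome I, 6967984 to 6970315) is annotated as integral membrane protein TmpA, which in Aspergillus nidulans regulates conidiation. The level of NCU00848 was 1.91 and 2.80 CPM in the WT cultures on Avicel, 196 and 271 on histidine and 1.91 and 2.26 on leucine. In Δclr-5, NCU00848 was at 62.9 and 209 CPM on Avicel, 4016 and 3724 on histidine and 13.5 and 17.7 on leucine. Its folds were 57.7, 16.6 and 7.48, with both strains highest on histidine.

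Of the other members with a symbol, un-24, the gene of the large subunit of ribonucleotide reductase, which also acts in heterokaryon incompatibility, was also higher. The level of un-24 was 167 and 189 CPM in the WT cultures on Avicel, 199 and 157 on histidine and 185 and 196 on leucine. In Δclr-5, un-24 was at 332 and 336 CPM on Avicel, 358 and 395 on histidine and 534 and 647 on leucine. The folds of un-24 were 1.87, 2.11 and 3.10, and its 6 WT values lay between 157 and 199 CPM. The gene of the catalytic subunit of DNA polymerase zeta, upr-1, had folds of 2.21, 2.42 and 2.89. Those of mig-4 were 6.88, 3.81 and 2.76 and those of acd-1 5.46, 1.97 and 3.20. A symbol was given for 23 of the 130 members.

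Members without a symbol included several of the largest folds and levels. NCU03011 had folds of 34.5, 31.7 and 8.97, NCU03861 of 56.5, 14.5 and 2.94 and NCU08037 of 16.8, 9.28 and 14.03. The highest Δclr-5 level per kilobase among them was that of NCU05395, with 1872 CPM per kb. After it and NCU00477 came NCU00848, with 575, NCU06986, with 541, NCU07363, with 479, and NCU00935, with 323. NCU05395 read 1483 and 2167 CPM in WT on histidine and 3919 and 3910.5 in Δclr-5. Other annotated members were NCU00937 (beta-glucuronidase) with folds of 2.39, 2.31 and 3.78, NCU01849 (extracellular dioxygenase) with 1.85, 3.78 and 2.84, NCU01861 (short chain dehydrogenase/reductase family) with 19.3, 1.85 and 10.2 and NCU02190 (oxysterol binding protein) with 3.13, 1.83 and 2.03. The ratio of the largest to the smallest of the 3 folds was under 1.5 for 31 genes and over 5 for 27. The most even genes were NCU08982, with folds of 1.86, 1.95 and 1.86, and NCU05500, with 2.00, 2.10 and 1.99, although on Avicel the fold of NCU08982 was 1.22 with Δclr-5 culture 1 and 2.499 with culture 2. The least even were mfa-1, acu-6, pre-2 and con-6, the last through culture 2 of Δclr-5 on Avicel.

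**Figure D3:**
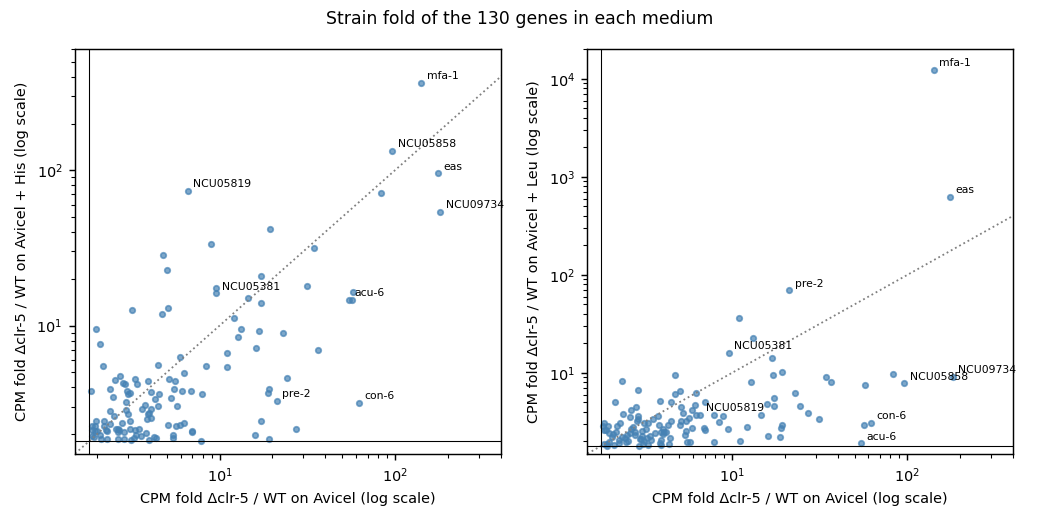
Strain fold (mean CPM of Δclr-5 over WT, log axes) of the 130 genes on Avicel (x axis of both panels) against that on histidine (left) and on leucine (right), 1 point per gene. Solid lines mark the minimum of 1.8 set by the rule and the dotted line equal folds, and mfa-1 stands at 12381 on leucine while con-6 and acu-6 lie far below the dotted line.

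The rule set no condition on differences between media, and these were tested within each strain. It did use the group levels that these tests compare, so the counts below are not independent of it. Its part in them was not tested. The genes tested as a whole were not held to the minimum of 5 CPM in Δclr-5. The test was edgeR's quasi-likelihood F test on TMM-scaled counts over all 12 libraries, with p adjusted over the 8805 genes tested, which included all 130. A call needed an adjusted p under 0.05 and a log2 difference of at least 0.5. In the WT strain, 70 of the 130 genes were higher on histidine than on Avicel and 15 were lower. Over all genes tested, 27.7% were higher and 24.4% lower. The median log2 difference was 1.14 over the 130 genes and 0.08 over all genes tested. By library size alone, the scale of the CPM in the text, the median of all genes was 0.63, so levels on histidine look higher in CPM than in this test. Raised most were NCU00848, with a log2 difference of 6.07 (SE 0.52, edgeR adjusted p = 6.16e-06), NCU03660, with 5.48 (SE 0.52, edgeR adjusted p = 1.15e-05), and ada-6, with 5.34 (SE 0.63, edgeR adjusted p = 6.71e-05). Others that rose were acu-6, by 4.34 (SE 0.72, edgeR adjusted p = 0.000591), and pks-3, by 2.80 (SE 0.18, edgeR adjusted p = 3.71e-07). Lowered most were NCU00285, with -4.28 (SE 0.29, edgeR adjusted p = 7.37e-07), NCU07804, with -2.48 (SE 0.26, edgeR adjusted p = 1.38e-05), and NCU09782, with -2.25 (SE 0.25, edgeR adjusted p = 2.04e-05). The conidiation gene con-8 fell as well, with -1.95 (SE 0.32, edgeR adjusted p = 0.00043), while eas rose by 2.36 (SE 0.84, edgeR adjusted p = 0.0355). The call of eas ended without either WT culture on Avicel, either WT culture on histidine, WT culture 1 on leucine or either Δclr-5 culture on histidine (adjusted p 0.0503 to 0.161).

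On leucine, 27 of the 130 genes were higher than on Avicel in WT and 37 were lower, beside 22.2% and 19.6% of all genes tested. Without WT culture 1 on Avicel 17 were higher, and without WT culture 2 on Avicel 15. The median log2 difference was -0.20, against -0.03 over all genes. The most raised was acu-6, with 6.33 (SE 0.77, edgeR adjusted p = 0.000139), before NCU07823, with 4.94 (SE 0.29, edgeR adjusted p = 3.95e-07), and con-6, with 4.81 (SE 1.19, edgeR adjusted p = 0.00886). The call of con-6 ended without either WT culture on Avicel (adjusted p 0.0552 to 0.0556). The most lowered was eas, with -7.61 (SE 1.16, edgeR adjusted p = 0.00058), before NCU08152, with -2.95 (SE 0.56, edgeR adjusted p = 0.00175), and NCU09782, with -2.78 (SE 0.26, edgeR adjusted p = 1.04e-05). Among the 130 genes, 24 were called higher on both amino acids in WT and 10 lower on both, beside 12.2% and 10.8% of all genes tested. Another 15, eas among them, were called higher on histidine and lower on leucine, beside 2.11%. Both amino acid comparisons use the WT cultures on Avicel.

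In Δclr-5, 68 of the 130 genes were higher on histidine than on Avicel and 12 were lower, beside 27.2% and 27.6% of all genes tested. The median log2 difference was 0.93 over the 130 genes and 0.03 over all. In 58 genes the rise on histidine was called in both strains, beside 19.1% of all genes tested. The largest rises were those of pks-3, with 5.18 (SE 0.19, edgeR adjusted p = 2.57e-08), NCU00290, with 4.97 (SE 0.27, edgeR adjusted p = 1.23e-07), and NCU03011, with 4.91 (SE 0.35, edgeR adjusted p = 1.47e-06). The largest falls were those of NCU00285, with -3.30 (SE 0.26, edgeR adjusted p = 2.00e-06), NCU07804, with -3.02 (SE 0.25, edgeR adjusted p = 2.88e-06), and con-8, with -2.83 (SE 0.32, edgeR adjusted p = 3.40e-05). The receptor gene pre-2 fell too, with -2.46 (SE 0.35, edgeR adjusted p = 0.000147). For eas the difference was 1.77 (SE 0.82, edgeR adjusted p = 0.0887), which did not pass. Without Δclr-5 culture 1 on Avicel, the count of genes lower on histidine became 24.

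On leucine, Δclr-5 had 15 of the 130 genes higher than on Avicel and 55 lower, beside 19.5% and 17.8% of all genes tested. The median was -0.57, against 0.02 over all genes. Without Δclr-5 culture 2 on Avicel, which read high for most members, 33 were higher and 46 lower. The rise of mfa-1 was the largest, with 5.07 (SE 0.49, edgeR adjusted p = 2.19e-05), before NCU06615, with 3.61 (SE 0.25, edgeR adjusted p = 2.35e-06), and NCU09692, with 2.28 (SE 0.19, edgeR adjusted p = 8.79e-06). The falls were led by eas, with -5.76 (SE 0.98, edgeR adjusted p = 0.00121), NCU09734, with -5.02 (SE 0.82, edgeR adjusted p = 0.000945), and NCU03861, with -4.34 (SE 0.96, edgeR adjusted p = 0.00538). The call of NCU03861 ended with only the libraries of the comparison in the fit (adjusted p 0.07). The genes fl, with -2.88 (SE 0.54, edgeR adjusted p = 0.00211), chit-1, with -2.75 (SE 0.32, edgeR adjusted p = 9.71e-05), and cut-1, with -2.93 (SE 0.53, edgeR adjusted p = 0.00184), also fell. In Δclr-5, 26 of the 130 genes were called higher on histidine and lower on leucine, beside 1.74% of all genes tested.

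**Figure D4:**
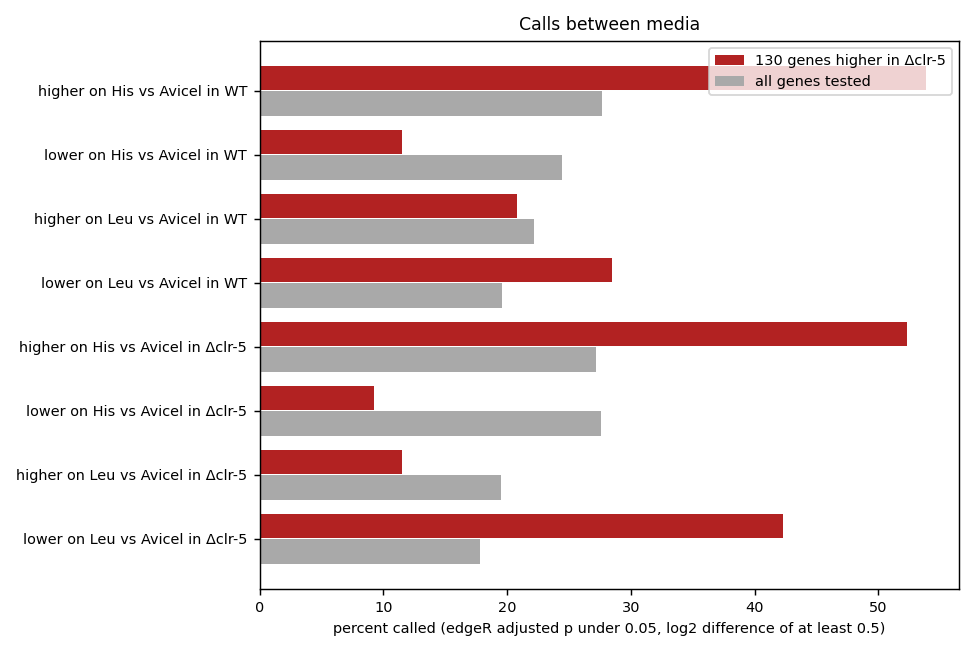
Percent of the 130 genes (red) and of all 8805 genes tested (grey) called higher or lower on histidine (His) or leucine (Leu) than on Avicel, within WT and within Δclr-5. On histidine, 53.8% of the 130 genes were higher than on Avicel in WT and 52.3% in Δclr-5, beside 27.7% and 27.2% of all genes.

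The strain fold also varied between the media. The rule used these folds, so their differences between media are a description, and no p is given. Some genes named for them below were picked by the size of the fitted difference, among those at an adjusted p under 0.05. The fold on histidine was at least 2 times that on Avicel for 13 of the 130 genes, and that on Avicel at least 2 times that on histidine for 30. For leucine the numbers were 8 and 39. These counts depend on the Δclr-5 culture on Avicel. With culture 1 alone they were 30 and 11 for histidine and 16 and 17 for leucine. With culture 2 alone they were 12 and 51 for histidine and 4 and 60 for leucine. Both amino acid media are set against the same cultures on Avicel.

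Among the genes with the larger fold on histidine were some whose WT level there was called lower or was not called. The level of NCU05819 was 11.8 and 13.2 CPM in the WT cultures on Avicel, 6.66 and 7.55 on histidine and 2.51 and 2.44 on leucine. In Δclr-5, NCU05819 was at 45.9 and 119 CPM on Avicel, 548 and 503 on histidine and 7.26 and 11.2 on leucine. The log2 strain fold of NCU05819, fitted in edgeR, was larger on histidine than on Avicel by 3.73 (SE 0.47). The level of NCU08469 was 2.55 and 3.04 CPM in the WT cultures on Avicel, 3.79 and 3.83 on histidine and 1.75 and 2.38 on leucine. In Δclr-5, NCU08469 was at 11.5 and 15.1 CPM on Avicel, 112 and 107 on histidine and 11.6 and 13.8 on leucine. For NCU08469 the difference was 2.80 (SE 0.27). The level of NCU08487 was 59.1 and 50.4 CPM in the WT cultures on Avicel, 42.0 and 31.6 on histidine and 36.3 and 36.8 on leucine. In Δclr-5, NCU08487 was at 95.4 and 121 CPM on Avicel, 383 and 317 on histidine and 94.1 and 115 on leucine. NCU08487 had a difference of 2.47 (SE 0.23). In these 3 genes a rise on histidine was called in Δclr-5. In WT, NCU05819 was called lower there, with -1.37 (SE 0.35, edgeR adjusted p = 0.00652). NCU08487 was called lower too, with -1.13 (SE 0.16, edgeR adjusted p = 0.00016), and NCU08469 was not called. The call of NCU05819 ended by library size alone (adjusted p 0.0927). Whether the strains differ in their answer to histidine was not tested. For pks-3, with the level raised in both strains, the difference was 2.38 (SE 0.23).

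On leucine, the log2 fold of mfa-1 was larger than on Avicel by 6.36 (SE 0.67). For NCU05858 the difference was -3.65 (SE 0.59), for NCU07823 -2.85 (SE 0.36), for NCU00290 -2.77 (SE 0.37) and for acu-6 -4.81 (SE 0.92), the fold on leucine being the smaller in each. NCU10603 had a smaller fold on both amino acids, with -1.90 (SE 0.28) on histidine and -2.02 (SE 0.28) on leucine. For pre-2 the difference on histidine was -2.52 (SE 0.56). Among the conidiation genes, those on histidine were -0.59 for eas and -0.47 for fl. Without Δclr-5 culture 1 on Avicel they were -1.46 and -1.18, and without culture 2 they were 1.93 and 0.96, so that the sign turned with the culture left out. For con-6 the difference on histidine was -4.94 without culture 1 and -0.44 without culture 2.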

How the data were processed

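RNA was sequenced from 12 cultures in 6 groups of 2. The authors aligned reads to the OR74A transcripts (version 12 of the genome by the methods) with TopHat (2.0.8b in the submitters' processing notes) and deposited raw counts per gene, which HTSeq 0.13.5 took from reads unique to a gene. No reads were aligned again.

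CPM were each count divided by the column total of 16797962 to 20381308 and scaled up, and are not TMM-scaled. The rule, the 130 genes, the 6 gene lists and the tests were chosen with earlier results of these data known. The low-count filter of edgeR 4.0.16, filterByExpr, kept 8805 of 9730 genes and dropped 925 (R 4.3.3). A single robust quasi-likelihood fit of the 6 groups used TMM factors and the 12 libraries. It left 6 residual degrees of freedom, and the common biological CV was 0.174. The contrasts tested were each amino acid medium against Avicel within a strain. The difference of the strain fold between these media was fitted too, but is described with no test, because the folds chose the genes. All p are adjusted by Benjamini-Hochberg over 8805 genes. SEs are approximate, the absolute log2 difference over the square root of F. The fit was checked on simulated counts. With 2 cultures per group, p rest on the spread between cultures, pooled over the 6 groups and shared in part across genes. Apart from the floors of 3 counts, no counting error of single CPM is given.

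Genes named are clr-5, members with a symbol, the 10 largest mean folds, the 10 highest Δclr-5 levels, the 5 genes on each side of the threshold, the 3 largest differences each way per contrast of the fit, among those at an adjusted p under 0.05, neighbouring members, and listed genes beside them. Others were named after their values were seen. Symbols and coordinates came from the RefSeq annotation of NC12, which matched all 130 genes. Alternatives were DESeq2 1.42.0, RLE size factors, library size alone, no filter, no fold threshold, a replicate block, a fit of the compared libraries alone, other limits of the rule and leaving out each library. No sequence of these genes is printed.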

Additional observations from a re-analysis of the deposited data

How the results depend on the processing

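The number of genes that met the rule was 249 at a fold of 1.5, 55 at a fold of 2.5, 176 at 1 CPM, 93 at 15 CPM, 92 with TMM scaling, 90 with DESeq2 size factors, and 103 to 145 when single libraries were left out. With library size alone, 9 genes were lower on histidine in WT. With only the libraries of the comparison, Δclr-5 had 7 genes higher and 33 lower on leucine. The last setting had fewer samples, and the causes of these changes were not tested.

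Leaving out single libraries gave 56 to 76 genes higher and 12 to 17 lower on histidine in WT, 15 to 29 higher and 26 to 41 lower on leucine in WT, 55 to 93 higher and 11 to 24 lower on histidine in Δclr-5, and 12 to 33 higher and 44 to 72 lower on leucine in Δclr-5. Without Δclr-5 culture 2 on Avicel, 5 differences of Δclr-5 between histidine and Avicel changed sign. Their range over the libraries left out, with the upper end at this one, was -2.23 to 2.27 for con-6, -0.99 to 1.15 for fl, -0.89 to 1.28 for acd-1, -1.10 to 2.85 for NCU03861 and -0.98 to 1.85 for NCU09734. With library size alone, un-24 between histidine and Avicel in WT changed sign to 0.000383. Over all settings, 210 values of single genes lost a call, 92 gained one and 6 changed sign. The planned counts of genes with a larger or smaller strain fold on an amino acid, and their alternatives, were not used, because the folds chose the genes.

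Replicate numbers did not pair the cultures: deviations of same-numbered cultures correlated at -0.28 to 0.49 over 15 pairs of groups, with 3 pairs above 0.1. With the replicate number as a block, 69 genes were higher and 15 lower on histidine in WT, 26 and 36 on leucine in WT, 69 and 11 on histidine in Δclr-5, and 14 and 53 on leucine in Δclr-5. With the block, 6 calls of named genes were lost. By library size alone, the median log2 difference of all genes moved from 0.08 to 0.63 for WT on histidine and from 0.03 to 0.38 for Δclr-5 on histidine. Genes of few counts, such as eas in WT on leucine, limit the precision of their folds.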
